A study of Mus musculus with 2 samples.

Results

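The oncofetal genes Lin28a, Lin28b, Hmga1, Hmga2, Igf2bp1, Igf2bp2, Igf2bp3 and Arid3b were taken by symbol from the authors' deposited table, which held all 8 of them among 23365 genes. RNA had been sequenced from fibroblasts grown from mouse embryos (MEFs), a mesenchymal culture, with 2 genotypes and 1 library for each. One genotype was wild type and the other had TET1 and TET2 knocked out, a pair of enzymes that act on methylated cytosine by oxidizing it. The series title places the study in the question of how Tet1 and Tet2 bear on developmental genes. The labels give no strain, embryo age, passage or number of embryos, and nothing on whether the knock-out was germline. The table names its arms only as conditions A and B, without saying which genotype either one is, so ratios are given as B over A and are not assigned to a genotype.

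LIN28 proteins bind the precursors of the let-7 microRNAs and block their maturation. Mature let-7 in turn represses many fetal genes by pairing with their 3' untranslated regions (3' UTRs), Hmga2, the Igf2bp genes, Arid3b and the Lin28 genes themselves among its textbook targets. HMGA proteins bend AT-rich DNA, IGF2BP proteins bind and stabilize mRNAs, and ARID3B is a DNA-binding protein with an AT-rich interaction domain. The family is known for high levels in the embryo, for falling after birth and for returning in tumours.

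The let-7 microRNAs are shown because they are what links the members. The RefSeq miRNA set (GRCm38.p6) held 11 mature miRNAs with the same bases 2 to 8, the seed, from 13 loci, and 4 of them are printed 5′ to 3′ with the seed in capitals.
let-7a: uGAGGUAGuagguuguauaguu
let-7d: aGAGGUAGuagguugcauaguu
let-7g: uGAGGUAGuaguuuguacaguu
miR-98: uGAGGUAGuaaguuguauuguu
The printed miRNAs have identical seeds and differ outside them. The reverse complement of the seed, CTACCTC, was searched on the sense strand of the 3' UTR of each gene's longest complete coding transcript in GENCODE M21 (GRCm38). A match is a description of the letters and not a measured site.

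Every member held the motif, while 10.7% of the 12017 genes with an annotated 3' UTR, a finite ratio and a mean normalized count of at least 50 held it 1 or more times. Lin28b, Hmga2 and Igf2bp1 had 4 matches each, a number reached by 0.0832% of those genes, Lin28a had 2, and Hmga1, Igf2bp2, Igf2bp3 and Arid3b had 1 each. Most members are known let-7 targets, so their matches were to be found and are no test of enrichment. Lin28a and Lin28b lie below that mean and so outside the compared genes. Longer 3' UTRs hold more matches, and those of the members ran from 1178 bases in Hmga1 to 6337 in Igf2bp1. The median over the compared genes was 1219 bases. Per kilobase of 3' UTR, Hmga2 had the most matches of the members (1.33) and Arid3b the fewest (0.463). The matches of the 6 members with a mean of at least 50 follow, with 15 bases before and 1 after, the match in capitals and its place counted from the first base after the stop codon.
Hmga2, from base 58: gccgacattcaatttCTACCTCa
Hmga2, from base 1295: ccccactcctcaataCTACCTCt
Hmga2, from base 1733: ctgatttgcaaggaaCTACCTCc
Hmga2, from base 2591: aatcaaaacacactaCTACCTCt
Igf2bp1, from base 1715: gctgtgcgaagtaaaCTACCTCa
Igf2bp1, from base 4136: cagcagtgctattaaCTACCTCa
Igf2bp1, from base 4730: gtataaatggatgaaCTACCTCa
Igf2bp1, from base 5353: acttttggttttaatCTACCTCt
Igf2bp2, from base 1313: acacacaaataaaagCTACCTCa
Igf2bp3, from base 548: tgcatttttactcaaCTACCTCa
Hmga1, from base 801: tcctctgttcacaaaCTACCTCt
Arid3b, from base 2148: tatttcaataaagctCTACCTCt
In 3 of the 4 matches of Igf2bp1, in 1 of the 4 of Hmga2 and in the single matches of Igf2bp2 and Igf2bp3 the next base was an A, which the let-7 pathway is known to favour. In Hmga1 and Arid3b it was not. The match of Arid3b lay close to the end of a 3' UTR of 2160 bases.

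Without scaling for transcript length, the members at a mean normalized count of at least 50 spanned 237-fold in that mean. The largest difference of any of them between the conditions was 2.23-fold, that of Hmga1, whose level is uncertain, as given below. Levels are given as the authors' mean normalized count, that is counts scaled by size factors and averaged over both conditions, and as that mean per kilobase of the longest coding transcript where genes are compared. Of the 8 members, 6 reached a mean normalized count of 50, the minimum set here for reading a ratio, per the authors' deposited table. Hmga2 was the highest, with a mean normalized count of 31877 per the authors' deposited table, a level that 0.839% of all listed genes reached. Per kilobase it stood at 8367, a level reached by 3.46% of genes with that minimum and a coding transcript.

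The Igf2bp genes came next. Igf2bp2, the family member best known from adult tissues, had a mean normalized count of 8803 per the authors' deposited table, Igf2bp3 one of 5938 and Igf2bp1 one of 3072. Per kilobase the order was the same, at 2258, 1367 and 367 mean normalized counts. Hmga2 was thus 3.71 times Igf2bp2 per kilobase, Igf2bp2 was 1.65 times Igf2bp3 and Igf2bp3 was 3.73 times Igf2bp1. No spread over cultures exists for these values, so it is not known which neighbours in this order differ beyond it.

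Hmga1 and Arid3b lay far lower, with mean normalized counts of 143 and 134 per the authors' deposited table, or 71.4 and 32.2 per kilobase. Of the genes at the minimum mean with a coding transcript, 88.9% and 95.3% reached or passed these levels per kilobase. The level of Hmga1 is uncertain, since most of its transcript sequence also occurs in another gene, as given below. The Lin28 genes were at the bottom. Lin28b had a mean normalized count of 2.06 per the authors' deposited table, too low for a ratio to be read, and Lin28a was listed at 0 in both conditions. The 11 let-7 precursor genes of the table were also all listed at 0, and a library of this kind does not capture mature microRNAs, so let-7 itself was not measured.

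**Figure D1:**
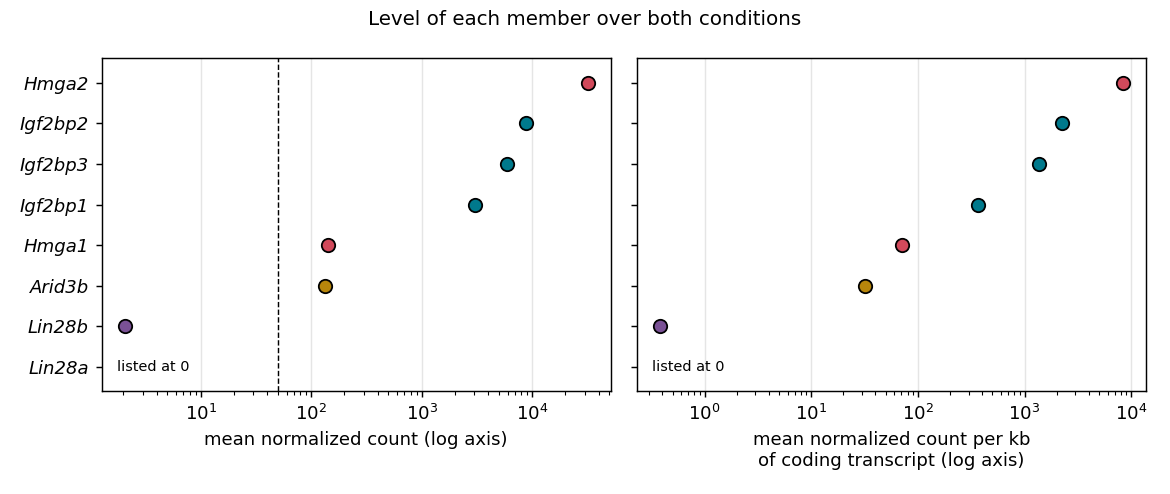
Mean normalized count of each member over both conditions (left, log axis; the dashed line is the minimum of 50) and the same per kilobase of the longest coding transcript (right, log axis), 1 point per gene, coloured by family. Hmga2 stands highest at 31877, the 3 Igf2bp genes lie between 3072 and 8803, Hmga1 and Arid3b lie at 143 and 134, Lin28b lies at 2.06 and Lin28a is listed at 0.

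Some of these values are uncertain because parts of the transcripts also occur in those of other genes, on another chromosome or on the same one. Of the 50-base words of the Hmga1 transcript, 69.1% also occur in Hmga1b, a gene on another chromosome. The sources used here do not say how reads with several places were counted, and the part of this in the low Hmga1 value was not tested. Igf2bp3 shares 34.5% of its 50-base words with Malsu1, a mitochondrial ribosome factor gene on the opposite strand, and the library kit does not mark strand. Malsu1 had a mean normalized count of 858 per the authors' deposited table and a log2 ratio of 0.02. For Arid3b the shared part was 7.57%, for Hmga2 4.36%, for Lin28a 1.65% and for Igf2bp1 0.516%, and it was 0 for Lin28b and Igf2bp2. The gene sharing most with Arid3b, Hmga2 or Lin28a lay on the opposite strand of the same chromosome. For Igf2bp1 it lay on the same chromosome and strand. The pseudogene Hmga2-ps1 had a mean normalized count of 761 per the authors' deposited table, 2.39% of that of Hmga2, and a log2 ratio of 0.44 close to that of its parent gene.

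Between the conditions, the 4 highly expressed members differed by at most 1.29-fold. Hmga2 was 1.29-fold higher in B per the authors' deposited table, a log2 ratio of 0.36 (raw p = 0.551). Igf2bp2 was 1.04-fold higher in B per the authors' deposited table, a log2 ratio of 0.06 (raw p = 0.919). Igf2bp3 was 1.07-fold lower in B per the authors' deposited table, a log2 ratio of -0.09 (raw p = 0.882), and Igf2bp1 was 1.16-fold lower, a log2 ratio of -0.22 (raw p = 0.737). Ratios at least as large in size as that of Hmga2 were found in 47.8% of all genes with a mean of at least 50, and for Igf2bp1, Igf2bp3 and Igf2bp2 the figures were 65.6%, 84.8% and 89.8%. None of these 4 ratios stood apart from the bulk of the table, and Hmga2 lay on the opposite side of 0 from Hmga1.

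The 2 members of low listed level, Hmga1 with its uncertain value and Arid3b, were both lower in B. Hmga1 was 2.23-fold lower in B per the authors' deposited table, a log2 ratio of -1.16 (raw p = 0.349). Arid3b was 2.001-fold lower per the authors' deposited table, a log2 ratio of -1.001 (raw p = 0.428). A ratio as large in size as these was found in 14.96% and 17.8% of all genes with that minimum. Genes of low mean spread more widely, and the share among genes of like level was not computed.

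By a 2-fold rule, meaning a log2 ratio of 1 or more in either direction at the minimum mean, 0 of 6 members were higher in B and 2 were higher in A. Over all 12401 genes at that mean, 8.31% were higher in B and 9.60% were higher in A. Arid3b met the rule by 0.000848 on the log2 scale. After centring on the trimmed mean or the median of all ratios it lay at -0.96 and -0.97 and no longer met it. The median log2 ratio of the 6 members was -0.15, against -0.04 over all genes at the minimum mean.

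Of the 7 members with a p-value in the authors' deposited table, 0 reached an adjusted p below 0.1, the limit chosen for this comparison, against 2.29% of all 17339 genes with one. The adjusted p was 1 for each of the 7 per the authors' deposited table, and 0 had a raw p under 0.05, against 6.28% of all genes with one, the smallest being the 0.349 of Hmga1. At an adjusted p under 0.05 the count was also 0, against 1.74% of all genes with one. These p-values came from DESeq, per the submitters' processing notes, on 1 library per condition. They compare 2 libraries rather than sets of cultures, and a p that misses the cut-off does not show that levels were equal.

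**Figure D2:**
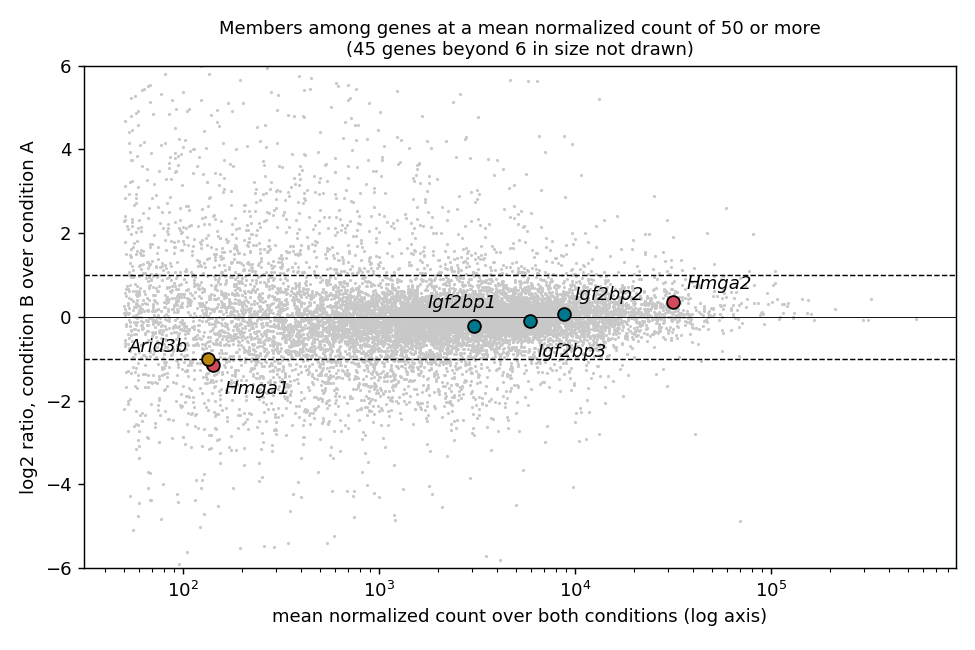
Log2 ratio of B over A (vertical axis) against the mean normalized count over both conditions (horizontal log axis) for genes at a mean of 50 or more, with the 6 members coloured by family and dashed lines at the 2-fold rule. Hmga2 and the 3 Igf2bp genes lie inside the band around 0, and Hmga1 and Arid3b lie at the lower dashed line, at -1.16 and -1.001, where genes of low mean spread more widely.

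The level and ratio of Hmga2 were nearest to those of Amotl2, an angiomotin family gene of cell junctions, with a mean normalized count of 31291 and a log2 ratio of 0.42 per the authors' deposited table. Next came Fam198b (30657 and 0.42 per the authors' deposited table) and Capn2, a calcium-dependent protease gene (33878 and 0.36). The likeness is a distance over log2 ratio and log2 mean across 2 conditions, so it shows no more than that these values are alike.

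Genes with and without let-7 matches had medians near each other. Among the 164 genes with 2 or more matches the median log2 ratio was -0.05, beside -0.04 for the 10727 genes with none, and the quartiles of the 164 were -0.48 and 0.21. With 1 match the median was -0.04 over 1126 genes, with 2 it was -0.05 over 139, and with 3 or more it was -0.01 over 25. Of the 164, 12 were higher in B and 16 higher in A by the 2-fold rule, or 7.32% and 9.76%. Of the 25 genes with 3 or more matches, which include Hmga2 and Igf2bp1, 4 were higher in B and 1 higher in A, or 16% and 4%. Over all 12017 compared genes the shares were 8.21% and 9.53%. The shares of the 25 rest on few genes and were not tested. The groups differ in 3' UTR length as well, with a median of 1102 bases for no match and 3606 for 2 or more.

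**Figure D3:**
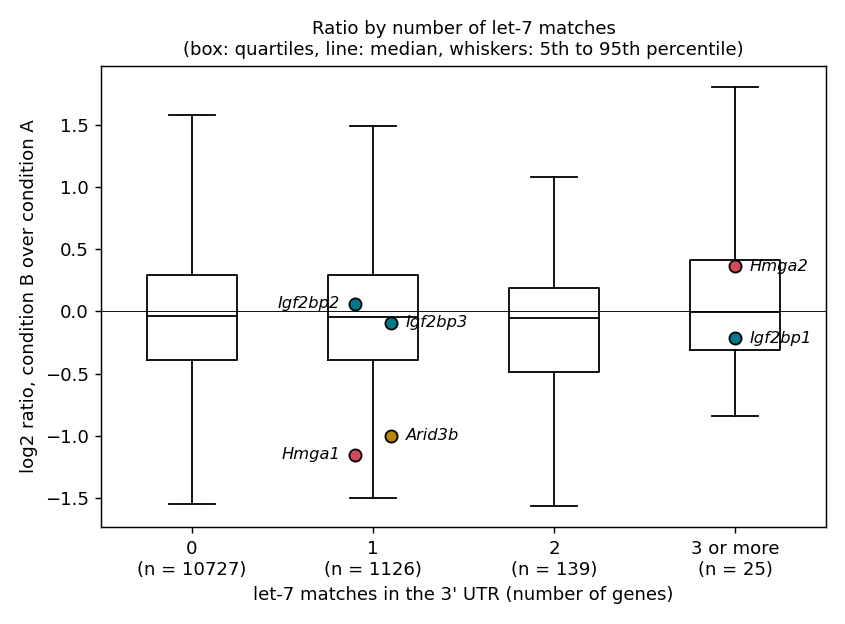
Log2 ratio of B over A for genes at a mean normalized count of 50 or more, grouped by the number of let-7 matches in the 3' UTR (boxes are quartiles, whiskers the 5th to 95th percentile), with the 6 members as points. The 4 medians lie between -0.05 and -0.01, Hmga2 and Igf2bp1 lie within the box of the group with 3 or more, and Hmga1 and Arid3b lie below the box of the group with 1.

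Genes that process, degrade or use let-7 had a median log2 ratio of -0.17 over the 17 of 18 at the minimum mean. Over all genes at that mean the median was -0.04. By the 2-fold rule 2 of the 17 were higher in B and 0 higher in A. Trim71, the ubiquitin ligase gene first known as a let-7 target in worms, was 5.09-fold higher in B per the authors' deposited table at a mean normalized count of 54.9, just above the minimum (adjusted p = 1). Trim25, an RNA-binding ubiquitin ligase gene, was 2.94-fold higher per the authors' deposited table (adjusted p = 0.377). Drosha, the nuclease gene that starts microRNA processing, had a log2 ratio of -0.94 and Khsrp, a splicing and decay factor gene, one of -0.78 per the authors' deposited table (adjusted p = 1 for both). None of the 17 reached an adjusted p under 0.1.

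Among other let-7 targets, known or predicted, 31 of the 34 in the table were at the minimum mean, with a median log2 ratio of -0.14. By the 2-fold rule 3 were higher in B and 2 higher in A, and 1 in each direction reached an adjusted p under 0.1. Gdf6, a BMP family ligand gene of joints and skeleton, was 34.7-fold higher in B per the authors' deposited table at a mean normalized count of 203 (adjusted p = 0.00672). Gatm, an enzyme gene of creatine synthesis, was 44.0-fold lower in B per the authors' deposited table at a mean of 261 (adjusted p = 0.000926). Edn1, the gene of the vessel-constricting peptide endothelin, was 4.38-fold higher per the authors' deposited table (adjusted p = 0.265). Trim71 is also on this list.

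Of other ARID genes, 12 of 13 were at the minimum mean, with a median log2 ratio of -0.26, and by the 2-fold rule 0 were higher in B and 1 higher in A. That gene, Arid5a, known in mouse for stabilizing Il6 mRNA, was 3.74-fold lower in B per the authors' deposited table (adjusted p = 0.383). Arid2, a chromatin remodelling subunit gene, had a log2 ratio of -0.80, Kdm5a, a histone demethylase gene, one of -0.42 and Arid4b one of -0.33 per the authors' deposited table. Arid3a, the closest relative of Arid3b named here, had a mean normalized count of 918 and a log2 ratio of 0.13 per the authors' deposited table.

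Other high mobility group genes had a median log2 ratio of -0.97 over the 9 of 12 at the minimum mean. By the 2-fold rule 0 of these were higher in B and 4 higher in A, and 0 reached an adjusted p under 0.1. Hmgn1 and Tox4 had log2 ratios near 0, -0.15 and -0.02 per the authors' deposited table. Hmgb2 and Hmgb3, DNA-bending chromatin proteins, were 3.84-fold and 3.81-fold lower per the authors' deposited table (adjusted p = 0.120 and 0.164). Hmgn2, which binds nucleosomes, was 3.39-fold lower per the authors' deposited table (adjusted p = 0.188), and Tox, a T cell factor gene with an HMG box, was 2.41-fold lower (adjusted p = 1). Cell division markers were mostly lower in B, their median log2 ratio being -1.92 over 12 genes, 11 of them higher in A and 0 higher in B by the 2-fold rule, and a summed mean normalized count of 59258. Of these, 3 reached an adjusted p under 0.1, such as Mki67, the proliferation marker, 4.79-fold lower in B per the authors' deposited table (adjusted p = 0.0298), and Plk1, a mitotic kinase gene, 4.23-fold lower (adjusted p = 0.0840). Bub1, of the spindle checkpoint, had a log2 ratio of -2.07 and Aurkb, a mitotic kinase gene, one of -2.05 per the authors' deposited table, and neither reached it. The part of cell division in the values of Hmga1, Arid3b and the HMG genes was not tested.

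RNA-binding genes with a cold shock domain, as LIN28 has, or with KH domains, as IGF2BP proteins have, were centred on 0, with a median log2 ratio of -0.01 over 19 of 20 genes. By the 2-fold rule 1 was higher in B and 2 were higher in A. Csdc2, a cold shock domain gene, was 2.92-fold higher per the authors' deposited table (adjusted p = 1), and Carhsp1, of the same domain, had a log2 ratio of 0.89. Fmr1, the gene silenced in fragile X syndrome in humans, was 2.64-fold lower (adjusted p = 0.512) and Fubp1, which binds the far upstream element of Myc, 2.34-fold lower (adjusted p = 0.810) per the authors' deposited table.

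Transcripts known to be bound by IGF2BP proteins had a median log2 ratio of 0.22 over 9 of 10, a list that holds Hmga2 itself. By the 2-fold rule 1 was higher in B and 0 were higher in A. That transcript was Igf2, the fetal growth factor for which the IGF2BP family is named, 7.60-fold higher in B per the authors' deposited table at a mean normalized count of 3246 (adjusted p = 0.00240). Cd44, a hyaluronan receptor gene, had a log2 ratio of 0.84, Myc one of -0.45 and Igf1r, the IGF receptor gene, one of -0.51 per the authors' deposited table (adjusted p = 1 for each). The ratio of Igf2 thus stood beside ratios near 0 for all 3 Igf2bp genes.

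Insulin and IGF signalling genes had a median log2 ratio of 0.06 over 13 of 13, with 1 gene in each direction by the 2-fold rule, Igf2 and Rictor. Rictor, an mTOR complex subunit gene, was 2.40-fold lower per the authors' deposited table (adjusted p = 0.741), and Igf1 and Irs1 both had log2 ratios of 0.85. Other fetal genes went both ways, with a median log2 ratio of -0.06 over 13 of 15. By the 2-fold rule 1 was higher in B, again Igf2, which these lists share, and 3 were higher in A. Peg10, an imprinted gene of retrotransposon origin, was 7.97-fold lower in B per the authors' deposited table (adjusted p = 0.00104). Plagl1, an imprinted zinc finger gene, was 4.32-fold lower per the authors' deposited table (adjusted p = 0.0619), and Mest, imprinted as well, 4.05-fold lower (adjusted p = 0.122).

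**Figure D4:**
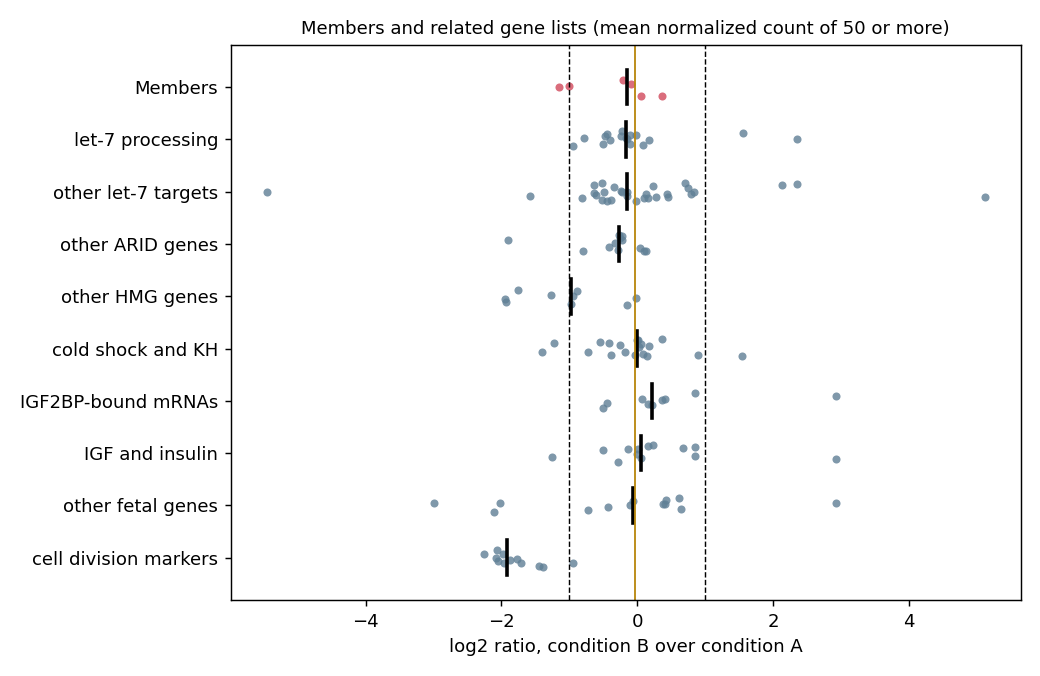
Log2 ratio of B over A for the 6 members and for genes of related lists at a mean normalized count of 50 or more (points, spread vertically for sight only), with list medians as black bars, the 2-fold rule as dashed lines and the median of all genes as the gold line. The members' median lies at -0.15, that of other HMG genes at -0.97 and that of cell division markers at -1.92.

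The cells carried the markers of fibroblasts. All 11 fibroblast markers were at the minimum mean, with a median log2 ratio of 0.44, 4 of them higher in B and 0 higher in A by the 2-fold rule. Thy1, a surface marker, was 7.35-fold and Pdgfra, a growth factor receptor gene, 5.80-fold higher in B per the authors' deposited table (adjusted p = 0.00133 and 0.0191), S100a4 had a log2 ratio of 1.63 and Prrx1, a limb mesenchyme factor gene, one of 1.14. The other fibroblast markers lay on both sides of 0 per the authors' deposited table. Col1a1, Col1a2, Fn1 and Twist1 had log2 ratios of -0.08, -0.07, -0.06 and -0.22. Vim, Col3a1 and Pdgfrb had 0.27, 0.44 and 0.66. Of 12 pluripotent cell markers, which accompany Lin28a in embryonic stem cells, 5 were listed at 0 and 1 was at the minimum mean, Klf4, a factor gene also active in fibroblasts, at 12789 and 3.18-fold higher in B per the authors' deposited table (adjusted p = 0.242). The highest of 7 germ cell markers had a mean normalized count of 9.86. Of 7 trophoblast, 6 epithelial and 4 blood markers, 1 each was at the minimum mean, Eomes (63.4), Krt18 (111) and Cd68 (59.6) per the authors' deposited table. Their log2 ratios there were 4.18, -2.29 and 0.18, with adjusted p-values of 0.675, 1 and 1. Of 5 neural progenitor markers, Nes (16350), an intermediate filament gene also used by cultured fibroblasts, and Msi1 (187) were at the minimum mean per the authors' deposited table, with log2 ratios of -0.15 and -0.23. The remaining epithelial and neural markers, Krt5, Krt8, Krt14, Epcam, Cdh1, Pax6, Sox1 and Neurog2, and the blood markers Ptprc, Emr1 and Hbb-b1 were below it. The targeted genes Tet1 and Tet2 had log2 ratios of -1.82 and -0.74 per the authors' deposited table, at 1 value per gene, and these values assign neither condition to a genotype.

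The promoters of the members, taken as 250 bases before to 50 after the start in RefSeq (GRCm38.p6) for 7 of the 8, differed in CpG content, the letters CG counted on 1 strand. Where a gene had several promoters listed, the highest count was kept, for members and all genes alike. Igf2bp2 had 47 and Hmga1 had 40, numbers reached by 1.66% and 4.41% of 27025 genes. Igf2bp3 and Arid3b had 25 each, a number that 20.2% of genes reached. Hmga2 had 12, Lin28a 10 and Lin28b 8, beside a median of 8 over all genes. Methylation was not measured in these libraries.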

How the data were processed

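Per the labels' protocols, the libraries were TruSeq RNA v2 libraries from DNase-treated total RNA, extracted with TRIzol from frozen pellets. The tools named in the submitters' processing notes are TopHat2 2.0 and DESeq, with build mm9, and the sources used here give neither counter nor annotation. The authors' deposited signal is a gene's count scaled by size factors and averaged over both conditions. The authors' deposited fold, or ratio, is B over A, and their log2 ratio holds no pseudocount. Both p-values, raw and adjusted, are as the authors deposited them. The 2 columns of values for single conditions match neither sample's label and were not used, so no depth, counting interval or value per library is given. A single ratio therefore has no error. The members and lists were chosen with earlier results of these data known. Genes named were the 8 members, up to 4 genes of each list with the largest ratio in size at a mean of at least 50, every gene of lists with at most 6 entries, the 3 genes most like Hmga2, Tet1 and Tet2. Malsu1, Arid3a, Hmga2-ps1, Hmgn1, Tox4 and the fibroblast markers other than Thy1, Pdgfra, S100a4 and Prrx1 were named after their values were seen. GENCODE M21 transcripts were matched by symbol or RefSeq synonym for 12329 of 12401 genes at the minimum mean, and 12022 of those had a 3' UTR. GENCODE M21 differs in build from the authors' reference, so no genome coordinates are given. Shared words were 50 bases long, on either strand. Alternatives were trimmed mean (30% of ratios, 5% of abundances trimmed at each end) and median centring, other minimum means and sizes, and ratios freed of trends on GC content and length (20 bins each). Python 3.11.15 and pandas 2.3.3 were used, and the steps were tested on simulated data.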

Additional observations from a re-analysis of the deposited data

How the results depend on the processing

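No paired analysis was possible because each genotype had 1 library, and for the same reason no replicate could be left out. The number of members higher in A by the 2-fold rule, 2, was 1 with trimmed mean or median centring, where Arid3b left it, 0 with a minimum mean of 200, since Hmga1 and Arid3b lie below that mean, and 0 when a log2 ratio of 2 was asked for. The number higher in B, 0, was 1 with no minimum mean, where Lin28b at a mean normalized count of 2.06 entered. Both numbers stayed at 2 and 0 under a minimum mean of 10, a 1.5-fold rule and removal of the GC content and length trend. Shares of all genes past the size rule were taken at the main setting only. The member counts at other settings thus have no share beside them, and an unchanged count does not show a stable result. At an adjusted p under 0.05 the count of members was 0, against 1.74% of all genes with one. Of 20 recomputed ratios of single members, 18 kept their direction and their side of the 2-fold rule, and the other 2, both of Arid3b at -0.96 and -0.97, kept their direction. Trimmed mean and median centring subtract a constant from every ratio, -0.041 and -0.036. Only a ratio that close to 0 or to the rule could change under them, so the agreement says little. The 20 also include Lin28b, whose mean is too low for a ratio to be read. The median of genes with let-7 matches, -0.05, was -0.05 with at least 1 match and -0.08 at a minimum mean of 200. Without counts per library, the depth behind the ratios of Hmga1 and Arid3b was not analysed.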
